A study of Homo sapiens with 6 samples.

Results

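Beta-catenin (CTNNB1) and 9 genes that surround it in the Wnt pathway and at cell junctions were read on arrays in the Hodgkin lymphoma line L428. The genes are CTNNB1, APC, AXIN1, AXIN2, GSK3B, LEF1, TCF7, TCF7L2, CDH1 and JUP, and all probe sets annotated to exactly 1 of them were taken. This gave 31 probe sets of 9 genes, among 54675 probe sets and 19775 named genes on the array, and TCF7 is not analysed here because no probe set carries its name alone in the annotation used. CTNNB1 was singled out because it was among the genes of smallest p in this same contrast, so its difference is given as a description, and no test of it is used as support. The other genes were listed with that result known, and their differences are treated the same way.

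The study transfected L428 cells by nucleofection with an LNA inhibitor of miR-9 (3 arrays) or with a scrambled LNA (3 arrays). LNA, locked nucleic acid, is a modified nucleotide that lets a short antisense strand bind a microRNA tightly. Both groups are the same cell line, grown in RPMI medium with fetal bovine serum, and total RNA was taken 9 h after transfection for Affymetrix HG-U133 Plus 2.0 arrays. The replicates are numbered 1 to 3, with no word on whether each was its own culture. Errors therefore measure the spread between these samples, which may be technical, and a single cell line was used.

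Beta-catenin is the signal carrier of canonical Wnt signalling and also a structural link between cadherins and the actin cytoskeleton. Without a Wnt signal, the scaffolds APC and axin hold it for phosphorylation by casein kinase and GSK3, and the ubiquitin ligase adaptor BTRC then marks it for the proteasome. With a Wnt signal this complex is disabled, and beta-catenin enters the nucleus, where it acts with the DNA-binding factors LEF1, TCF7 and TCF7L2. Because this control acts on the protein, mRNA levels do not report how much beta-catenin is stabilized. In lymphocytes LEF1 and TCF7 are best known from early B and T cell development.

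The inhibitor is aimed at miR-9, whose sequence is shown because its seed is the part that pairs with target mRNAs. The labels do not say which of the 2 mature arms was targeted. Both are given 5′ to 3′ from RefSeq (GRCh38.p14), with the seed (bases 2 to 8) in capitals.
hsa-miR-9-5p: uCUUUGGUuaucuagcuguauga
hsa-miR-9-3p: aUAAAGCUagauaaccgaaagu
The same mature sequences come from 3 genes. The 5p arm lies at chr1:156420392-156420414 on the minus strand in MIR9-1, at chr5:88666902-88666924 on the minus strand in MIR9-2 and at chr15:89368032-89368054 on the plus strand in MIR9-3. Target sites in the mRNAs described here were not analysed.

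Values are log2 expression per probe set, a probe set being a group of short probes read together for 1 transcript region. A level filter at 7.11, the median of the 6-array means of non-control probe sets, separates brighter probe sets from dimmer ones, where differences may be understated. Of the 31 probe sets, 18 lay above the filter and belong to all 9 genes, and 9 of the 18 lay within 0.3 of it. The other 13 lay below. Each difference is the miR-9 LNA mean less the scrambled LNA mean, with its limma standard error, and group errors are SDs of n = 3 arrays.

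Facts of the arrays touch these results. Array medians lay between 7.10 and 7.15, while the 90th percentile was 9.53 to 9.57 with the miR-9 LNA, 9.45 and 9.47 on scrambled replicates 2 and 3, and 9.28 on scrambled replicate 1. Scrambled replicate 1 thus stood apart, with the lowest 90th percentile and the highest dap spike-in, an added bacterial RNA (10.19 against 8.06 to 8.67 elsewhere). Its GAPDH 3′ minus 5′ signal, a measure of RNA integrity, was 0.19 against -0.05 to 0.06 on the other arrays, while that of ACTB was 0.58, inside their range of 0.22 to 0.87. The main differences are also given without this array. Of the 27307 probe sets above the filter, 0 (0%) passed limma with a Benjamini-Hochberg adjusted p under 0.05, and 3926 (14.4%) had an unadjusted p under 0.05, 3755 of them higher (13.8%) and 171 lower (0.626%) under the inhibitor.

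The cells carried the genes that mark Hodgkin cell lines. The CD30 gene TNFRSF8 was at 10.57 ± 0.15 (SD, n = 3) under the inhibitor and 10.45 ± 0.10 under the scrambled LNA, and the chemokine gene CCL17 was at 12.71 ± 0.10 and 12.69 ± 0.14. The B cell genes CD79B, MS4A1 and POU2AF1 lay below the filter. Of 11 T and NK cell markers 3 lay above it, and the mean level of that list was 6.97 to 7.02 on the inhibitor arrays and 7.005 to 7.10 on the scrambled arrays. The epithelial list lay at 7.15 to 7.21 and 7.15 to 7.19, with 5 of 10 above the filter and EPCAM below it. The fibroblast and endothelial list lay at 7.07 on all 3 inhibitor arrays and at 7.07 to 7.14 on the scrambled ones, with 6 of 10 above the filter.

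CTNNB1 mRNA was higher on every miR-9 LNA array than on every scrambled array at the probe set that reads it most brightly, by about 1.34-fold. Its other probe sets showed no such separation in the deposited values. At 201533_at the CTNNB1 level was 10.26, 10.25 and 10.33 on miR-9 LNA replicates 1, 2 and 3, and 9.77, 9.88 and 9.93 on scrambled replicates 1, 2 and 3. The groups did not overlap, and scrambled replicate 1 was lowest. The group means were 10.28 ± 0.04 and 9.86 ± 0.08, a log2 difference of 0.42 ± 0.07. As in any bulk sample, a difference in some of the cells and a difference in all of them cannot be told apart. The gene spans chr3:41199505-41240443 in GRCh38.p14.

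The size of the CTNNB1 difference at 201533_at moved little when single arrays were left out, while the separation of the groups could not be lost in this way. The difference was lowest at 0.37, without scrambled replicate 1, and highest at 0.45, without scrambled replicate 3. The same-numbered arrays differed by 0.49, 0.37 and 0.40 for numbers 1, 2 and 3. After quantile normalization, which forces the same distribution on all arrays, the CTNNB1 difference was 0.24 ± 0.06, or 1.18-fold, and the groups still did not overlap.

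The CTNNB1 probe set 223679_at read 7.75, 7.49 and 7.57 with the miR-9 LNA and 7.64, 7.69 and 7.63 with the scrambled LNA. Here miR-9 LNA replicate 1 was the highest of the 6 arrays and replicate 2 the lowest, and the log2 difference was -0.05 ± 0.08. Without miR-9 LNA replicate 2 it was 0.008. The third CTNNB1 probe set, 1554411_at, lay below the filter at 6.79 to 6.87 on all 6 arrays, with a difference of 0.03 ± 0.05. After quantile normalization this difference was 0.07, with the groups narrowly apart at 6.84 to 6.89 against 6.78 to 6.83. In the deposited values the differences at 223679_at and 1554411_at thus lay within their standard errors, so their signs cannot be read. Which transcript forms each CTNNB1 probe set reads is not analysed here.

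**Figure D1:**
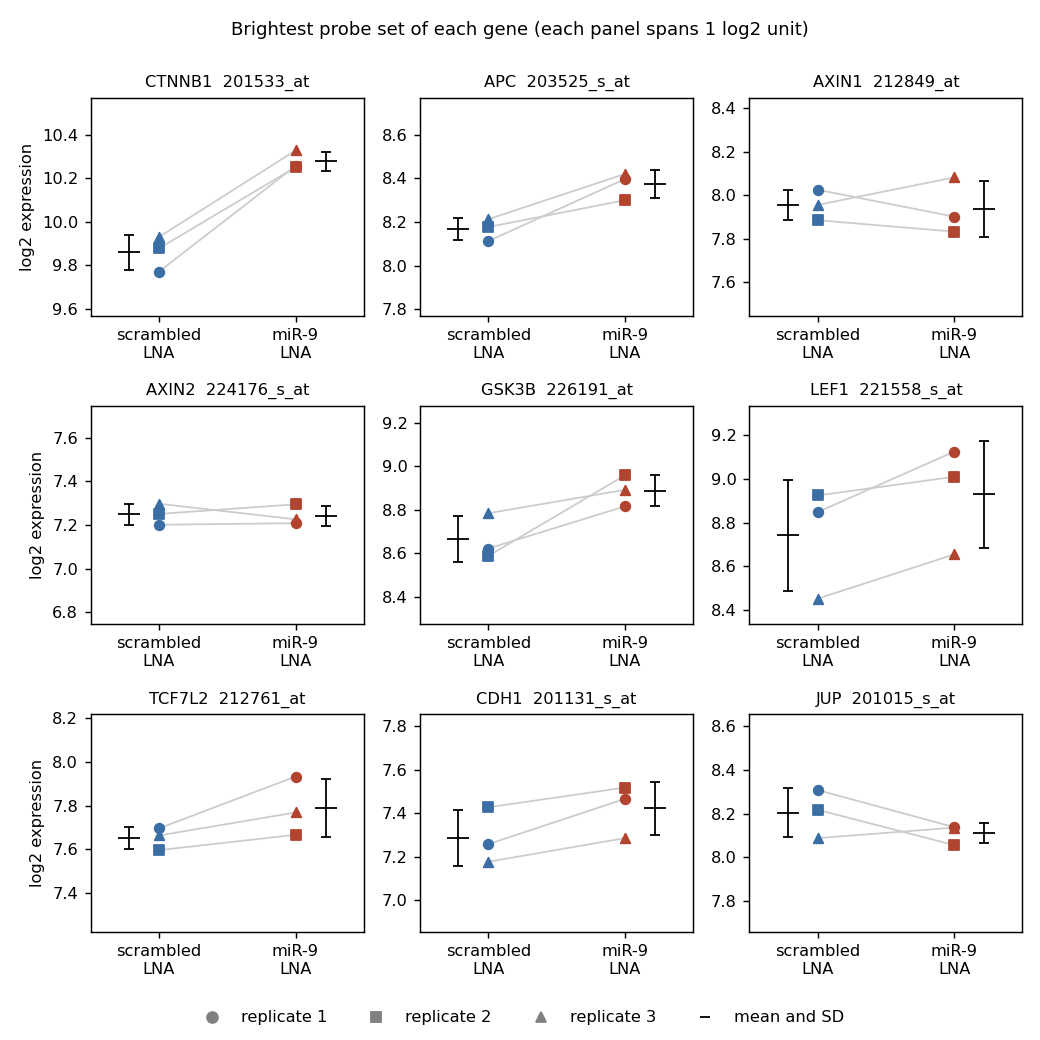
Log2 expression (vertical axes, each spanning 1 log2 unit) of the brightest probe set of each of 9 genes on the 3 scrambled LNA (blue) and 3 miR-9 LNA (red) arrays; grey lines join same-numbered arrays and black bars give the mean and SD. CTNNB1, APC and GSK3B do not overlap between the groups, while LEF1 varies from array to array with number 3 lowest in both groups.

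Among genes of the destruction complex, APC and GSK3B were higher with the miR-9 LNA at their brightest probe sets without overlap, and AXIN1 and AXIN2 differed at theirs by less than their SDs. APC is the large scaffold of the complex and a tumour suppressor of the colon. Probe set 203525_s_at read APC at 8.40, 8.30 and 8.42 with the miR-9 LNA and at 8.11, 8.18 and 8.21 with the scrambled LNA. Every miR-9 LNA array lay above every scrambled array, with means of 8.37 ± 0.06 and 8.17 ± 0.05 and a log2 difference of 0.21 ± 0.06. A dimmer APC probe set, 203526_s_at, read 7.32, 7.18 and 7.29 against 7.02, 7.09 and 7.07, again without overlap and with a difference of 0.20 ± 0.06.

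The remaining APC probe sets showed no separation. APC differed by 0.06 ± 0.07 at 203527_s_at, by -0.03 ± 0.07 at 215310_at and, below the filter, by 0.03 ± 0.09 at 216933_x_at. After quantile normalization APC differed by 0.12 at 203525_s_at and by 0.23 at 203526_s_at, both still without overlap. Without scrambled replicate 1 these were 0.18 and 0.18 in the deposited values. Within same-numbered pairs APC was higher under the inhibitor in 3 of 3 cases at 203525_s_at, 203526_s_at and 203527_s_at.

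GSK3B, a kinase that phosphorylates beta-catenin for degradation, had 5 probe sets. At 226191_at GSK3B read 8.82, 8.96 and 8.89 with the miR-9 LNA and 8.62, 8.59 and 8.78 with the scrambled LNA. The groups were separate by a narrow margin, between miR-9 LNA replicate 1 and scrambled replicate 3. The means were 8.89 ± 0.07 and 8.66 ± 0.10, a log2 difference of 0.22 ± 0.08, which was 0.20 without scrambled replicate 1 and 0.11 with overlap after quantile normalization. GSK3B differed by 0.06 ± 0.08 at 209945_s_at, where miR-9 LNA replicate 1 (8.40) stood above the other 5 arrays (8.14 to 8.21). Without that array the GSK3B difference at 209945_s_at was -0.02, and with all 6 arrays after quantile normalization it was also -0.02. At 226183_at, near the filter, it was -0.02 ± 0.07, and the 2 dim probe sets 240562_at and 242336_at gave 0.01 and 0.009.

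AXIN1, the scaffold that brings kinases and beta-catenin together, was read by 212849_at at 7.90, 7.83 and 8.08 with the miR-9 LNA and 8.03, 7.89 and 7.96 with the scrambled LNA. The groups overlapped, and the log2 difference was -0.02 ± 0.08. AXIN2 is a second axin and a feedback gene that beta-catenin switches on in many tissues, which makes it a common readout of Wnt signalling. All 4 AXIN2 probe sets lay near the filter, between 6.91 and 7.30 over all arrays. The AXIN2 differences ran from -0.04 to -0.007, each within its standard error, and after quantile normalization 224176_s_at gave 0.015. At this level no change of AXIN2 was detectable. At 224176_s_at AXIN2 read 7.21, 7.29 and 7.23 against 7.20, 7.25 and 7.30. At 222696_at, below the filter, the miR-9 LNA arrays (7.05 to 7.11) lay under the scrambled ones (7.12 to 7.14), and after quantile normalization they overlapped.

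The DNA-binding partners of beta-catenin overlapped between the groups at every probe set. LEF1, an HMG-box factor of early lymphocytes, read 9.13, 9.01 and 8.65 with the miR-9 LNA and 8.85, 8.92 and 8.45 with the scrambled LNA at 221558_s_at. Arrays numbered 3 were the lowest of both groups, and the groups overlapped. The means were 8.93 ± 0.25 and 8.74 ± 0.25, a log2 difference of 0.19 ± 0.16. Within same-numbered pairs LEF1 differed by 0.28, 0.09 and 0.20. With replicate number as a block the LEF1 difference stayed at 0.19 and its standard error was 0.06. It was 0.06 after quantile normalization. Leaving out scrambled replicate 3 moved it to 0.04 and leaving out miR-9 LNA replicate 3 to 0.33. The LEF1 probe sets 221557_s_at and 210948_s_at lay near or below the filter and each differed by -0.02.

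TCF7L2, the main partner of beta-catenin in gut epithelium, had 7 probe sets, of which 5 lay below the filter. At 212761_at TCF7L2 read 7.93, 7.67 and 7.77 against 7.70, 7.60 and 7.66. The groups overlapped and miR-9 LNA replicate 1 was highest. The log2 difference was 0.14 ± 0.08, and without that array 0.07. At 212759_s_at, near the filter, TCF7L2 read 7.14, 7.20 and 7.27 against 7.32, 7.34 and 7.23, a difference of -0.09 ± 0.06. The 2 probe sets above the filter thus had opposite signs, also after quantile normalization (0.11 and -0.07). The 5 dim ones lay between 6.79 and 7.20 and differed by -0.07 to 0.06.

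The junction genes gave small differences of both signs. E-cadherin (CDH1) joins epithelial cells and holds beta-catenin at the membrane, and it has been reported as a direct target of miR-9 in breast cancer cells. At 201131_s_at CDH1 read 7.47, 7.52 and 7.29 with the miR-9 LNA and 7.26, 7.43 and 7.18 with the scrambled LNA. The groups overlapped, although each miR-9 LNA array lay above its same-numbered partner, and the log2 difference was 0.14 ± 0.09. After quantile normalization it was 0.15. The other CDH1 probe set, 201130_s_at, lay below the filter at 6.59 to 6.76 and differed by -0.06 ± 0.06. CDH1 was therefore close to the background of the array at both probe sets.

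Plakoglobin (JUP, also called gamma-catenin) is the closest relative of beta-catenin and sits in desmosomes and adherens junctions. Its single probe set, 201015_s_at, read JUP at 8.14, 8.06 and 8.14 with the miR-9 LNA and at 8.31, 8.22 and 8.09 with the scrambled LNA. The groups overlapped through scrambled replicate 3, the lowest of its group. The log2 difference was -0.09 ± 0.07, opposite in sign to that of CTNNB1 at 201533_at. After quantile normalization JUP differed by -0.17 ± 0.09, and without scrambled replicate 1 by -0.04 in the deposited values.

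**Figure D2:**
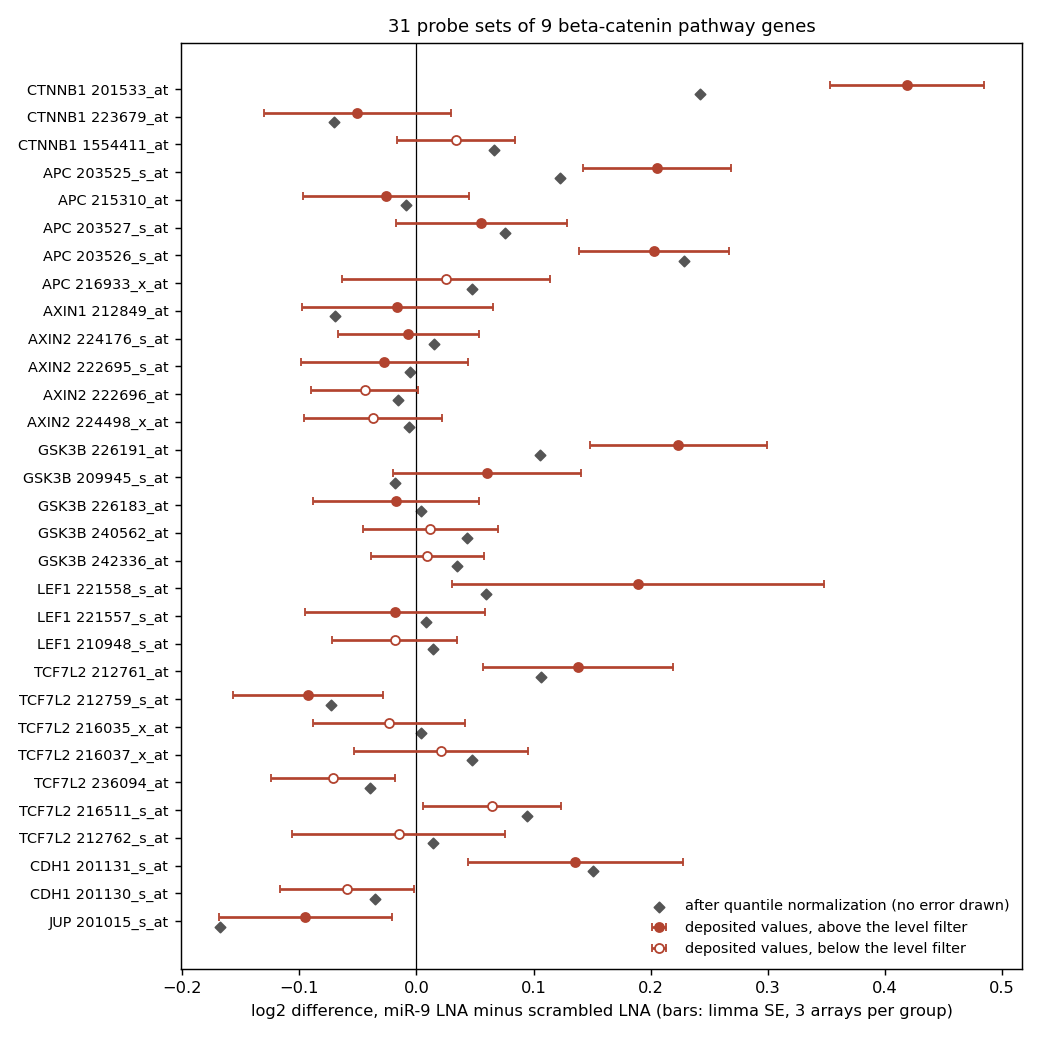
Log2 difference (horizontal axis, inhibitor minus scrambled) of all 31 probe sets, with limma standard errors from 3 arrays per group; filled circles lie above the level filter, open circles below it, and diamonds are the same differences after quantile normalization. CTNNB1 201533_at lies farthest to the right at 0.42, and most probe sets lie within 0.1 of 0.

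Over the 18 probe sets above the filter, 9 lay higher under the inhibitor, where 66.9% of all tested probe sets did, and 9 lay lower. Their median log2 difference was 0.02 beside 0.06 over all tested probe sets. For 4 of the 18 the inhibitor arrays all lay above the scrambled arrays, beside 18.1% of all tested probe sets, and for 0 all lay below, beside 3.97%. These 4 are CTNNB1 201533_at, APC 203525_s_at, APC 203526_s_at and GSK3B 226191_at. They are also the 4 of 18 with an unadjusted limma p under 0.05, beside 14.4% of all, and 0 passed the adjusted threshold. That count was 5 with the replicate block, beside 22.8% of all, and 2 after quantile normalization, beside 4.55%. Since the members were chosen with this contrast known, these counts are given only beside the shares of the whole array, and nothing is read from them. After quantile normalization 11 were higher, beside 51.5% of all, and 7 lower, with a median of 0.01 beside 0.004. Then 3 did not overlap in the higher direction, beside 5.98% of all, and 0 in the lower, beside 5.72%. The probe sets below the filter were divided too, with 6 higher and 7 lower.

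The level of a probe set went with the size of its difference across the array. In 5 equal bins of tested probe sets, from dim to bright, the median log2 difference was -0.03, -0.005, 0.06, 0.14 and 0.19, and after quantile normalization it lay between -0.007 and 0.02 in all 5. CTNNB1 201533_at lay in the brightest bin, where 0.348% of probe sets differed by at least as much. The same share after quantile normalization was 0.403%. GSK3B 226191_at and LEF1 221558_s_at lay in the fourth bin, where 20.0% and 31.9% differed by at least as much. APC 203525_s_at lay in the third bin, with a share of 7.78%, and APC 203526_s_at in the dimmest, with 0.476%. JUP lay in the third bin, where 92.1% of probe sets had a higher difference or the same. These shares describe where each member sat among probe sets of like brightness and are no test.

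**Figure D3:**
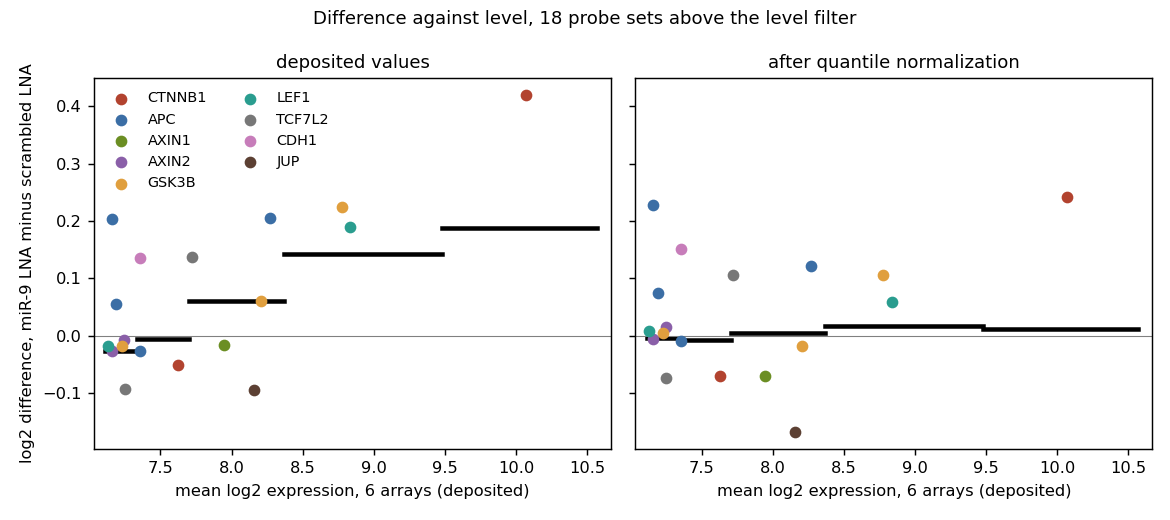
Log2 difference (vertical axis) against mean log2 expression over the 6 arrays (horizontal axis) for the 18 probe sets above the level filter, coloured by gene, in the deposited values (left) and after quantile normalization (right); black bars are the medians of all tested probe sets in 5 equal bins, the brightest bin drawn only in part. The bars climb from -0.03 to 0.19 on the left and lie near 0 on the right, and CTNNB1 201533_at lies above its bar in both.

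Genes whose array-to-array pattern was most like that of CTNNB1 201533_at were found by the root-mean-square distance between log2 profiles over the 6 arrays, each centred on its own mean. The nearest were ISG20L2 at a distance of 0.017, EXTL2 at 0.025, MDM4 at 0.034, HNRNPA2B1 at 0.035, DNTTIP2 at 0.045 and SMAD2 at 0.049, where the median of all candidates was 0.205. ISG20L2 read 9.87, 9.88 and 9.93 with the miR-9 LNA and 9.41, 9.50 and 9.59 with the scrambled LNA. In each of these genes, as in CTNNB1, scrambled replicate 1 was the lowest array. Their differences lay between 0.34 and 0.40, beside 0.42 for CTNNB1. Such likeness follows from choosing them by distance and is no separate result. After quantile normalization 3 of the 6 stayed among the nearest 6, namely ISG20L2, HNRNPA2B1 and EXTL2. Among the pathway members, the distance to CTNNB1 201533_at was 0.111 for APC 203525_s_at, 0.119 for GSK3B 226191_at, 0.255 for the CTNNB1 probe set 223679_at and 0.280 for JUP.

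The other genes of the pathway were grouped into 7 lists by role, taking the brightest tested probe set of each gene. Of 156 genes 148 were named on the array and 99 were tested. None passed limma's adjusted threshold, as for all 12367 genes tested (0%). In the deposited values 66 were higher, beside 70% of all genes, and 33 lower, with a median log2 difference of 0.08, the same as over all genes (0.08). Limma put 19 higher at an unadjusted p under 0.05, beside 17.4% of all genes, and 1 lower, beside 0.598%. With the replicate block these counts were 27 and 1, beside 26.7% of all genes in either direction. After quantile normalization 47 were higher, beside 49.6% of all genes, and 52 lower, with a median of -0.009 beside -0.0008, and 4 had an unadjusted p under 0.05, beside 4.22% of all genes.

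Wnt ligands and their secretion factors were dim in these cells. Of 16 named genes 7 lay above the filter. Of these 2 were higher, beside 70% of all genes, and 5 lower, and their median was -0.03. WNT5A, a ligand of non-canonical signalling, was at 8.14 ± 0.28 and 8.11 ± 0.29, and WNT10B at 8.06 ± 0.10 and 8.08 ± 0.09. WNT1 and WLS, the carrier that brings Wnt proteins to the cell surface, lay below the filter. The secreted and membrane inhibitors were also mostly dim, with 4 of 15 tested. Of these 1 was higher, beside 70% of all genes, and 3 lower, with a median of -0.02. NOTUM, an enzyme that removes the lipid of Wnt proteins, differed by -0.12 ± 0.07, and KREMEN1, a DKK receptor, by 0.09 ± 0.07. The DKK genes DKK1 to DKK4 all lay below the filter.

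Among receptors, 12 of 22 named genes were tested, with 7 higher, beside 70% of all genes, and 5 lower, and a median of 0.07. FZD3, a frizzled receptor, was at 9.13 ± 0.14 under the inhibitor and 8.78 ± 0.17 under the scrambled LNA, which differ by 0.35 ± 0.11 without overlap (limma adjusted p = 0.296). It differed by 0.22 with overlap after quantile normalization and by 0.26 without scrambled replicate 1. FZD6 was at 9.89 ± 0.20 and 9.67 ± 0.27 and overlapped, with a difference of 0.22 that was 0.05 after quantile normalization. LRP6, the co-receptor that recruits axin, was at 7.74 ± 0.19 and 7.94 ± 0.09, which is -0.20 ± 0.10 (limma adjusted p = 0.401). After quantile normalization LRP6 differed by -0.24 ± 0.10, and the groups overlapped both before and after it. The atypical receptor RYK differed by 0.16 ± 0.08, and by 0.02 after quantile normalization. With the replicate block 4 receptor genes were higher at an unadjusted limma p under 0.05 and 0 lower, beside 26.7% of all genes in either direction. Without the block these counts were 1 and 0, beside 17.4% and 0.598% of all genes.

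Dishevelled and the partners of the destruction complex numbered 30 tested genes, 24 higher and 6 lower, beside 70% of all genes higher, and their median was 0.12. After quantile normalization 14 were higher, beside 49.6% of all genes, and 16 lower, and the median was -0.01. Limma put 7 of them higher at an unadjusted p under 0.05, beside 17.4% of all genes, and 0 lower, beside 0.598%. PPP2CA, the catalytic subunit of protein phosphatase 2A, was at 12.38 ± 0.04 and 12.08 ± 0.14, a difference of 0.30 ± 0.08. The casein kinase CSNK1A1 differed by 0.28 ± 0.10, TNKS2, a tankyrase that marks axin for degradation, by 0.24 ± 0.07, and the deubiquitinase USP7 by 0.21 ± 0.07. Each had a limma adjusted p between 0.296 and 0.315. After quantile normalization these 4 differed by 0.13 (PPP2CA), 0.09 (CSNK1A1), 0.13 (TNKS2) and 0.02 (USP7), and the groups still did not overlap for PPP2CA alone of the 4. PPP2R1A, of the same list, went the other way, by -0.08 ± 0.10 with overlap in the deposited values. After quantile normalization PPP2R1A differed by -0.24 ± 0.08 without overlap. It was then the 1 gene of this list with an unadjusted limma p under 0.05, beside 4.22% of all genes.

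Nuclear partners of beta-catenin numbered 22 tested genes with a median of 0.11, where 17 lay higher, beside 70% of all genes, and 5 lower. At an unadjusted limma p under 0.05 there were 7 higher, beside 17.4% of all genes, and 0 lower, beside 0.598%. After quantile normalization the median was -0.008, 11 lying higher, beside 49.6% of all genes, and 11 lower. The corepressor genes CTBP1 and TLE1 differed by 0.24 ± 0.06 and 0.24 ± 0.07 and the kinase gene NLK, which phosphorylates LEF1 and TCF factors, by 0.21 ± 0.06, each without overlap (limma adjusted p = 0.296 for all 3). The deacetylase HDAC1, at 11.70 ± 0.16 and 11.55 ± 0.10, and the ATPase RUVBL2, at 11.37 ± 0.09 and 11.27 ± 0.07, overlapped between the groups. After quantile normalization CTBP1 differed by 0.07 and TLE1 by 0.09, both with overlap, and NLK by 0.11 without it. For 10 of the 22 genes every inhibitor array lay above every scrambled one in the deposited values, beside 2720 of all 12367 genes. For 3 every inhibitor array lay below, beside 474 of 12367. These 3 were PYGO2 (-0.13 ± 0.07), CTNNBIP1 (-0.07 ± 0.06) and BCL9L (-0.06 ± 0.06). Quantile normalization left PYGO2 at -0.18 and CTNNBIP1 at -0.13, both without overlap, and BCL9L at -0.05 with overlap.

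Other catenins and cadherins numbered 8 tested genes, 6 higher, beside 70% of all genes, and 2 lower, and their median was 0.25. At an unadjusted limma p under 0.05, 4 were higher, beside 17.4% of all genes, and 1 lower, beside 0.598%, and after quantile normalization 1 gene of the list had such a p, beside 4.22%. CTNNBL1, a splicing-associated protein with a beta-catenin-like fold, was at 10.19 ± 0.03 and 9.96 ± 0.06, higher by 0.23 ± 0.06 without overlap (limma adjusted p = 0.296). Alpha-catenin (CTNNA1), which links beta-catenin to actin, was at 11.11 ± 0.17 and 10.84 ± 0.14, with overlap. PKP4, a plakophilin, differed by 0.29 ± 0.10 and vinculin (VCL) by 0.29 ± 0.11, both with overlap. In the lower direction PKP1, chosen here after its value was seen, differed by -0.19 ± 0.07 without overlap and lay near the filter. After quantile normalization the median of the list was 0.07, 6 genes lying higher, beside 49.6% of all genes, and 2 lower. The differences were then 0.05 for CTNNBL1, 0.09 for CTNNA1, 0.14 for PKP4 and 0.13 for VCL, all with overlap. The cadherins CDH2, CDH3, CDH5 and CDH11 lay below the filter, and CTNND1 and CDH4 are not analysed here.

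Genes widely used as Wnt targets were evenly divided. Of 20 tested, 10 were higher, beside 70% of all genes, and 10 lower, with a median of 0.02 beside 0.08. Among them 0 had an unadjusted limma p under 0.05 in either direction, beside 18% of all genes. With the replicate block 2 had, CD44 and ZNRF3, both higher, beside 26.7% of all genes. These genes are named after their values were seen. TCF4 was at 11.77 ± 0.21 and 11.48 ± 0.34, with overlap, and the survivin gene BIRC5 at 11.10 ± 0.17 and 10.98 ± 0.06, a difference that turned to -0.07 after quantile normalization. JAG1, a Notch ligand, differed by 0.11 ± 0.06. LGR5, SP5 and DKK1, targets in many epithelia, lay below the filter. After quantile normalization 7 were higher, beside 49.6% of all genes, and 13 lower, with a median of -0.03.

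**Figure D4:**
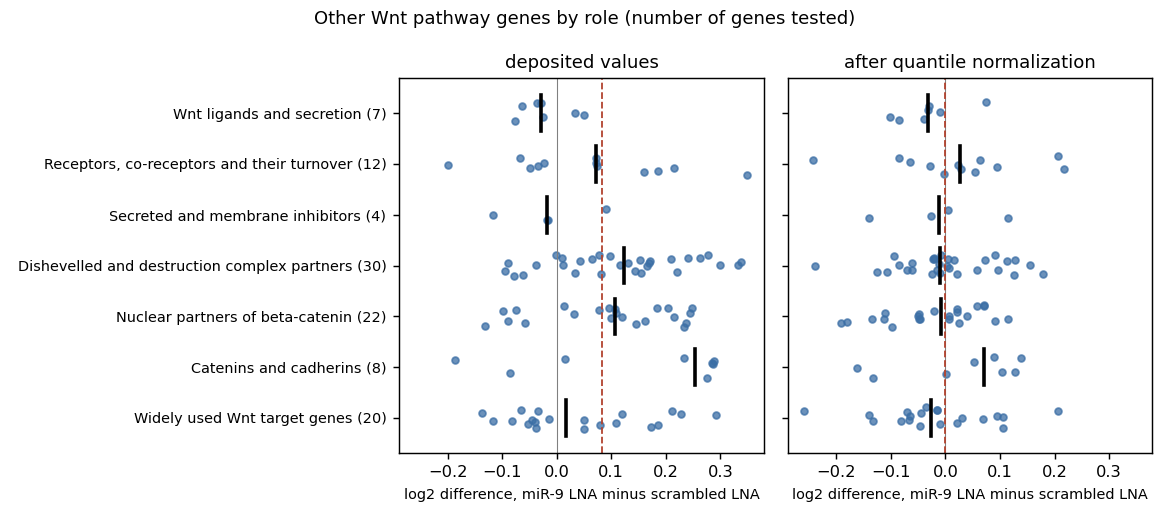
Log2 difference (horizontal axes) of each tested gene in 7 lists of other Wnt pathway genes, in the deposited values (left) and after quantile normalization (right); points are genes at their brightest probe set, black bars list medians, and the dashed line the median of all tested genes (0.08 left, -0.0008 right). The destruction complex and nuclear lists lie right of 0 on the left and around 0 on the right, and the ligands and target genes lie around 0 in both.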

How the data were processed

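The authors deposited log2 values for each probe set. The submitters' processing notes name RMA and the affy package, and neither versions nor options are given in the sources used here. From these, 62 control probe sets were left out and the 27307 with a mean at or above the median of the rest were tested with limma 3.58.1 in R 4.3.3 (lmFit, eBayes, two-sided, Benjamini-Hochberg). Probe sets below the filter were read from a fit without it. Gene names are those of the platform annotation (41091 probe sets with 1 symbol, 41037 of them matched to GRCh38.p14 genes by Entrez ID).

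The members and lists were chosen with earlier results of these data known. Named were all member probe sets and, in each list, genes of smallest p or highest level. Further genes (CSNK1A1, PPP2R1A, PYGO2, BCL9L, CTNNBIP1, BIRC5, TNFRSF8, PKP1, CD44, ZNRF3, those named as below the filter) were named after their values were seen.

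Across probe sets, the deviations of arrays 1, 2 and 3 from their group's mean correlated with those of their namesakes at r = 0.231, 0.193 and 0.634. For arrays of unlike number r ran from -0.429 to 0.168, so only number 3 stood clearly apart. The main fit did not pair the arrays. Replicate numbers entered only the alternative fits with a block and the differences given for same-numbered arrays. The labels do not state what a number shares. Alternatives covered the filter, normalization, variance model, array weights, replicate block, probe set rule and leaving out each array. The fit was tested on simulated data. Precision is limited by 3 arrays per group.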

Additional observations from a re-analysis of the deposited data

How the results depend on the processing

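No probe set passed limma's adjusted threshold under any of the 16 alternative fits. Of the 18 member probe sets tested, 4 had an unadjusted limma p under 0.05, beside 14.4% of all tested probe sets. That count was 2 after quantile normalization, beside 4.55%, and 5 with the replicate block, beside 22.8%. It was 3 to 4 when each array was left out and 2 after cyclic loess normalization. With both quantile normalization and the block it was 4. Shares over all probe sets are not given for these last settings, so nothing is read from their counts. Over the whole array, 6218 probe sets had an unadjusted p under 0.05 with the replicate block against 3926 without it, and the block changed no call at the adjusted threshold. The median difference of the 99 other pathway genes was 0.08, and ranged from 0.05 to 0.09 when each array was left out. It was 0.15 over the 67 genes left by the 70th percentile filter and 0.04 with the median of each gene's probe sets. It turned to -0.0094 after quantile normalization, with or without the replicate block, and to -0.0071 after cyclic loess normalization. Of the 6 genes nearest to CTNNB1, 3 stayed after quantile normalization and 0 with the mean of the 2 tested CTNNB1 probe sets as the reference. CTNNB1 201533_at kept its direction in all 16 alternatives, between 0.23 and 0.45, and APC 203525_s_at, GSK3B 226191_at and JUP kept theirs too. AXIN1 turned in 4 of 16 and AXIN2 224176_s_at in 8 of 15. Differences as small as those of these AXIN1 and AXIN2 probe sets cannot be told from 0 with 3 arrays per group. The cause of these shifts was not tested.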
